A study of Mus musculus with 4 samples.

Results

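The mRNA levels of 9 chemokine receptors that steer T cells into inflamed or particular tissues were followed in double-negative regulatory T cells (DNT), αβ T cells that lack both CD4 and CD8 and can restrain other immune cells. The receptors were Ccr1, Ccr2, Ccr4, Ccr9, Cxcr3, Cxcr4, Cxcr5, Cxcr6 and Cx3cr1. The set was drawn up as tissue-homing members of the family and not by a cutoff on their values, but with earlier results of these data known. All 9 were found among the 35275 genes of the deposited table. The wild-type group held 2 libraries of DNT from C57BL/6 mice, and the OX40-knockout group held 2 libraries of DNT from OX40-knockout mice of the same strain. OX40, encoded by Tnfrsf4, belongs to the TNF receptors and costimulates activated T cells. In all 4 libraries the cells had been naive CD4 T cells, were converted in culture and were sorted as CD3+ TCRαβ+ NK-CD4-CD8-. The mouse ages, the deleted part of Tnfrsf4 and whether replicate libraries stem from separate mice or cultures are not given in the labels, so p-values here reflect library-to-library spread alone, and that spread may be technical.

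Chemokine receptors are membrane receptors coupled to inhibitory G proteins, and they turn a gradient of a secreted chemokine into directed movement. Effector T cells typically gain receptors for chemokines of inflamed tissue, among them CXCR3, CXCR6, CCR1 and CCR2, and some gain receptors tied to a place, such as CCR4 for skin, CCR9 for the small intestine, CXCR4 for bone marrow and CXCR5 for B cell follicles. CX3CR1 is carried by terminally differentiated cytotoxic T cells and by many myeloid cells.

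Levels are given in RPKM, reads scaled by the length of the transcript and by the library total. The library totals recovered from the values lay between 22220888 and 24395743 reads. Tnfrsf4 itself was still read in both knockout libraries, at 12.1 and 9.38 RPKM against 18.2 and 12.3 RPKM in the wild-type libraries (limma adjusted p = 0.975), so it checks the labels little. OX40-knockout 1 stood apart from the other libraries. It was the highest or the lowest of the 4 for 79.5% of the 11625 tested genes, and its reads differed from those of OX40-knockout 2 with a chi-square of 53.6 per degree of freedom, against 10.0 between the wild-type libraries. The log2 changes of the tested receptors are therefore also given without it, while those of the other gene lists rest on all 4 libraries. Genes of the αβ T cell receptor complex were all present, with Cd3e between 248 and 332 RPKM, while Cd4 was at 0.82 and 1.97 RPKM in wild-type 1 and 2, against 10.1 and 2.06 RPKM in OX40-knockout 1 and 2, and Cd8a was between 9.03 and 16.6 RPKM.

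Among the 9 receptors, Cxcr6 and Ccr2 were the most abundant transcripts and Cxcr5 and Cx3cr1 the least. Mean levels over the 4 libraries were 65.5 RPKM for Cxcr6, 63.3 RPKM for Ccr2, 28.0 RPKM for Cxcr4, 9.92 RPKM for Cxcr3, 5.59 RPKM for Ccr4, 3.59 RPKM for Ccr1, 0.826 RPKM for Ccr9, 0.341 RPKM for Cxcr5 and 0.174 RPKM for Cx3cr1. Cxcr6 and Ccr2 together made up between 68.5% and 77.3% of the summed level of the 9 in each library. The sum itself was 178 and 168 RPKM in wild-type 1 and 2, against 198 and 165 RPKM in OX40-knockout 1 and 2. Set against all genes above 0 in at least 1 library, Cxcr6 lay at the percentile 91.2 of mean level and Ccr2 at 90.8, while Cx3cr1 lay at 30.1.

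The order of the levels was clear between some neighbours and not between others. The range over libraries of Cxcr6 overlapped that of Ccr2, with Cxcr6 the higher in 2 of 4 libraries. Cxcr4 stood below both and above Cxcr3 with no overlap of ranges. Cxcr3 and Ccr4 overlapped, since Ccr4 in OX40-knockout 1 reached 11.0 RPKM. Ccr4 and Ccr1 overlapped across libraries, although Ccr4 was the higher in all 4. Ccr1 was above Ccr9, and Ccr9 above Cxcr5, in every library. Cxcr5 and Cx3cr1 overlapped. Comparisons between genes also depend on the length each was scaled by, which the values put at 1893 nucleotides for Cxcr6 and 3535 for Ccr2, for example.

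**Figure D1:**
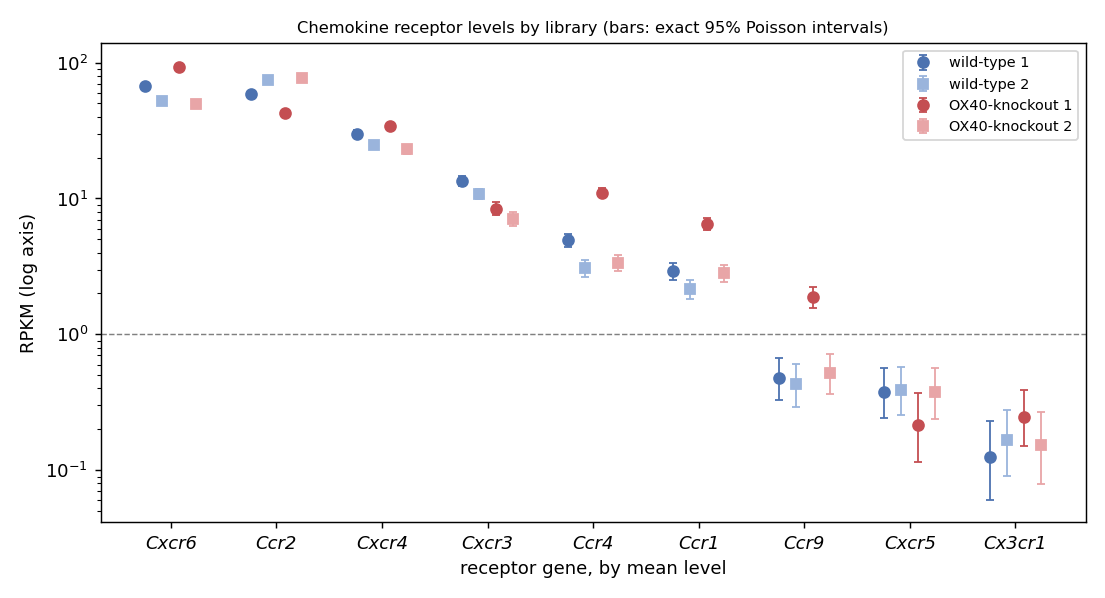
RPKM of the 9 receptors on a log axis, 1 point per library, with exact 95% Poisson intervals of the recovered reads as bars (counting error only) and a dashed line at 1 RPKM. Cxcr6 and Ccr2 lie between 42.7 and 92.9 RPKM in every library, and Ccr9, Cxcr5 and Cx3cr1 lie below 1 RPKM in all but OX40-knockout 1, where Ccr9 reaches 1.88 RPKM.

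The sequences upstream of 5 of these genes are shown. Of the receptors averaging at least 1 RPKM, these 5 had the widest ranges over the libraries on the log2(RPKM + 1) scale, between 0.84 and 1.57. Cxcr6, Ccr1 and Ccr4 were highest in OX40-knockout 1, Ccr2 was lowest there, and Cxcr3 was low in both knockout libraries. Each is the 250 bases before the transcription start in RefSeq (build GRCm38.p6), 5′ to 3′ on the strand of the gene, at chr9:123806227-123806476 (plus strand) for Cxcr6, chr9:123968693-123968942 (minus) for Ccr1, chr9:114496545-114496794 (minus) for Ccr4, chr9:124101933-124102182 (plus) for Ccr2 and chrX:101734148-101734397 (minus) for Cxcr3. The bases checked a little past the start were found somewhere in a GENCODE vM21 transcript of the gene for all but Ccr4. This check does not show that a transcript begins at the start used, for any of the 5. For Ccr4 not even these bases were matched to a transcript. Capitals mark matches to the motifs named in the paragraph that follows.
Cxcr6: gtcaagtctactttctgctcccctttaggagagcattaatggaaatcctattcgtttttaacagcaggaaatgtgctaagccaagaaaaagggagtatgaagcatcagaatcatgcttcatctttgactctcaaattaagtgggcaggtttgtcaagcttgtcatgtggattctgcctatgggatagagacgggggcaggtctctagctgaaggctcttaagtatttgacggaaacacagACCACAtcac
Ccr1: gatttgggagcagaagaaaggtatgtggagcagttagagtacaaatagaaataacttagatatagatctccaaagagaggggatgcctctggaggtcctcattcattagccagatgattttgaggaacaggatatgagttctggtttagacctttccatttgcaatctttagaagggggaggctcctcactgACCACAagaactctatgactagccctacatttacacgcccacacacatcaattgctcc
Ccr4: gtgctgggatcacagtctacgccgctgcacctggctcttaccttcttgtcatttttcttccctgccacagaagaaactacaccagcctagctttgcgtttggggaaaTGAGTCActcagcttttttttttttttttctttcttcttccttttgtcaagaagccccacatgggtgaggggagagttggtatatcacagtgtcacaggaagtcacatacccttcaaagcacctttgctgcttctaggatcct
Ccr2: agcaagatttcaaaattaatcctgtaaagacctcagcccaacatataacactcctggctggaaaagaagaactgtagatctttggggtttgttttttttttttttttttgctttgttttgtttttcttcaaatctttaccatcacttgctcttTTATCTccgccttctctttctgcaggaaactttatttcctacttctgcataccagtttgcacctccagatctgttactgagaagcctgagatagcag
Cxcr3: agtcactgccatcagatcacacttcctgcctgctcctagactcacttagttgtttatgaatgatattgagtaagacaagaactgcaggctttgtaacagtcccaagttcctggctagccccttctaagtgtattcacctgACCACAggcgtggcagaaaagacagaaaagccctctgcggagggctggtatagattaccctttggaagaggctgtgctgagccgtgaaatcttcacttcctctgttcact

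The motifs searched on both strands were TGTGGT for RUNX factors, AGATAA for GATA factors, GGTGTGA for T-box factors, CCACCC for KLF factors and TGANTCA for AP-1, a choice made with the levels already known. Windows were matched for 8 of the 9 receptors. The RUNX letters were found in 4 of the 8, Cxcr6, Ccr1, Cxcr3 and Cx3cr1, and in 14.0% of all 32851 windows of this length. In each of the 4 they lay on the opposite strand, starting at position -10 for Cxcr6, -58 for Ccr1, -110 for Cxcr3 and -54 for Cx3cr1, where -1 is the last base before the start. The GATA letters were in 1 window, that of Ccr2 (9.99% of all windows), and the AP-1 letters in 1, that of Ccr4 (6.75%). The KLF letters were in those of Ccr9 and Cx3cr1 (28.1%), and the T-box letters in none of the 8 (3.33%). No motif letters overlapped others in the 5 windows shown. A match describes letters and does not show that a factor binds there.

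Of the 9 receptors, 6 averaged at least 1 RPKM over the libraries and entered the limma test with all other genes, and Ccr9, Cxcr5 and Cx3cr1 did not. None of the 6 passed at an adjusted p under 0.05 with limma, and neither did any other gene, so the share called over all tested genes was 0.0%. At an unadjusted p under 0.05, limma gave 1 of the 6 receptors, Cxcr3, where 1.39% of all tested genes reached that level. The log2 change from wild-type to knockout was above 0 for 4 of the 6 (43.4% of all tested genes) and below 0 for 2 (56.6%), with a median of 0.12, beside -0.03 over all tested genes. Knockout and wild-type libraries did not overlap for 1 of the 6, against 26.4% of all tested genes. Of the 3 not tested, the values of Ccr9 were above and those of Cxcr5 below the wild-type libraries in both knockout libraries, but for OX40-knockout 2 by less than the counting error, and Cx3cr1 overlapped. In bulk RNA, fewer cells with a transcript and less transcript per cell cannot be told apart.

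Cxcr3 encodes the receptor for the interferon-induced chemokines CXCL9, CXCL10 and CXCL11. It stood at 13.4 and 10.8 RPKM in wild-type 1 and 2 (539 and 456 reads), against 8.42 and 7.04 RPKM in OX40-knockout 1 and 2 (324 and 275 reads). Both knockout libraries lay below both wild-type libraries, and the exact 95% Poisson intervals of the groups did not meet, since the lower wild-type interval began at 9.83 RPKM and the upper knockout interval ended at 9.39 RPKM. These intervals hold counting error only, not the spread between libraries. The group means were 12.1 ± 1.85 RPKM and 7.73 ± 0.979 RPKM (SD, n = 2 each), a ratio of 1.57. On the log2(RPKM + 1) scale the change came to -0.58 (standard error 0.17) and did not pass over all genes (limma adjusted p = 0.975). Among all tested genes 17.8% had knockout libraries wholly below the wild-type libraries, so a gap of this kind was common. The change was -0.70 without OX40-knockout 1 and -0.47 without OX40-knockout 2.

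Cxcr6, whose window holds the RUNX letters closest to the start, encodes the receptor for CXCL16 and is typical of effector and tissue-resident T cells. Its level was 67.5 and 51.8 RPKM in wild-type 1 and 2, against 92.9 and 49.7 RPKM in OX40-knockout 1 and 2. The knockout libraries were the highest and the lowest of the 4, so the groups overlapped fully. OX40-knockout 1 was 1.38 times the next highest library. The fitted log2 change came to 0.20 (standard error 0.33, limma adjusted p = 0.975). Without OX40-knockout 1 the change was -0.25.

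Ccr2 encodes a receptor for the monocyte chemoattractant chemokines CCL2, CCL7 and CCL12. It stood at 58.3 and 74.7 RPKM in wild-type 1 and 2, against 42.7 and 77.5 RPKM in OX40-knockout 1 and 2. Here OX40-knockout 1 was the lowest library, the mirror of its place for Cxcr6, and OX40-knockout 2 was the highest. The log2 change came to -0.19 (standard error 0.31, limma adjusted p = 0.975), and without OX40-knockout 1 it was 0.23. The ratio of Cxcr6 to Ccr2 within a library was 1.16 and 0.693 in the wild-type and 2.17 and 0.641 in the knockout. Ccr2 lies in a cluster of related receptor genes, and the sources used here do not say how multi-mapping reads were assigned, so its level is uncertain to that extent.

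The order of the libraries for Ccr2 was also the order of the summed NK cell markers, of which 4 of 4 averaged at least 1 RPKM. Taken singly, only Klrd1 had that order, and Ncr1, Klrb1c and Klra8 were highest in wild-type 2. With 4 libraries, such likeness is a description only. Summed levels of Ncr1, Klrb1c, Klra8 and Klrd1 were 225 and 342 RPKM in wild-type 1 and 2, against 125 and 351 RPKM in OX40-knockout 1 and 2. Ncr1 was at 0.408 and 7.93 RPKM in wild-type 1 and 2, against 0.183 and 7.49 RPKM in OX40-knockout 1 and 2, near 0 in both libraries numbered 1. Of 11 dendritic and myeloid markers, 4 averaged at least 1 RPKM, namely Cd68, Lyz2, Itgam and Itgax, and Siglech was at 0 throughout. The summed level of the 11 was between 19.5 and 30.1 RPKM, with Cd68 the highest, between 12.9 and 18.9 RPKM, and Csf1r at most 0.182 RPKM. Itgax was at 0.958 and 2.43 RPKM in wild-type 1 and 2, against 0.812 and 2.76 RPKM in OX40-knockout 1 and 2. Itgax and Cd14 had the library order of Ccr2, and the rest of the 11 did not. The part of other cell types in the level of Ccr2 was not tested.

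Ccr1 encodes a receptor for inflammatory chemokines such as CCL3 and CCL5. It was at 2.92 and 2.16 RPKM in wild-type 1 and 2 (192 and 149 reads), against 6.47 and 2.82 RPKM in OX40-knockout 1 and 2 (407 and 180 reads). OX40-knockout 1 was 2.21 times the next highest library, and OX40-knockout 2 lay between the wild-type libraries. The log2 change of 0.60 (standard error 0.36) did not pass (limma adjusted p = 0.975), and without OX40-knockout 1 it was 0.12.

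Ccr4 encodes the receptor for CCL17 and CCL22, and marks skin-homing cells, type 2 helper cells and many conventional regulatory T cells. It was at 4.93 and 3.06 RPKM in wild-type 1 and 2 (319 and 208 reads), against 11.0 and 3.35 RPKM in OX40-knockout 1 and 2 (683 and 211 reads). OX40-knockout 1 was 2.24 times the next highest library, while OX40-knockout 2 again lay between the wild-type libraries. Ccr4 had the widest range of the 9 on the log2(RPKM + 1) scale, at 1.57. Its log2 change came to 0.56 (standard error 0.53, limma adjusted p = 0.975), and it was -0.17 without OX40-knockout 1.

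Cxcr4, the receptor for CXCL12 that retains cells in bone marrow, was the steadiest of the 6 tested receptors, with a highest library 1.48 times the lowest. It was at 30.0 and 24.9 RPKM in wild-type 1 and 2, against 34.0 and 23.0 RPKM in OX40-knockout 1 and 2. Both libraries numbered 1 were above both libraries numbered 2, whatever the genotype. The same held for Cxcr6, Ccr4 and Ccr1, and the reverse held for Ccr2, so the libraries separated by number for 5 of the 6 tested receptors, where 42.7% of all tested genes did. For Ccr1 the gap was within counting error. Its Poisson intervals were 2.52 to 3.37 RPKM in wild-type 1 and 2.42 to 3.26 RPKM in OX40-knockout 2. This split by number was noticed after the values were seen. The log2 change came to 0.03 (standard error 0.22, limma adjusted p = 0.988), and it was -0.24 without OX40-knockout 1.

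Ccr9, the receptor for CCL25 that directs T cells to the small intestine, was read at 0.478 and 0.428 RPKM in wild-type 1 and 2 (34 and 32 reads), against 1.88 and 0.52 RPKM in OX40-knockout 1 and 2 (128 and 36 reads). OX40-knockout 1 was 3.61 times the next highest library, the widest such gap among the 9. The other 3 libraries could not be told apart at this depth, with Poisson intervals that all held 0.478 RPKM. Cxcr5, the follicle-homing receptor for CXCL13, was at 0.38 and 0.392 RPKM in wild-type 1 and 2, against 0.215 and 0.375 RPKM in OX40-knockout 1 and 2, from 13 to 26 reads. Cx3cr1, the receptor for the membrane-bound chemokine CX3CL1, was at 0.125 and 0.167 RPKM in wild-type 1 and 2, against 0.248 and 0.154 RPKM in OX40-knockout 1 and 2, from 10 to 19 reads. For both, the intervals of all 4 libraries met, so no difference was detectable at this depth.

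**Figure D2:**
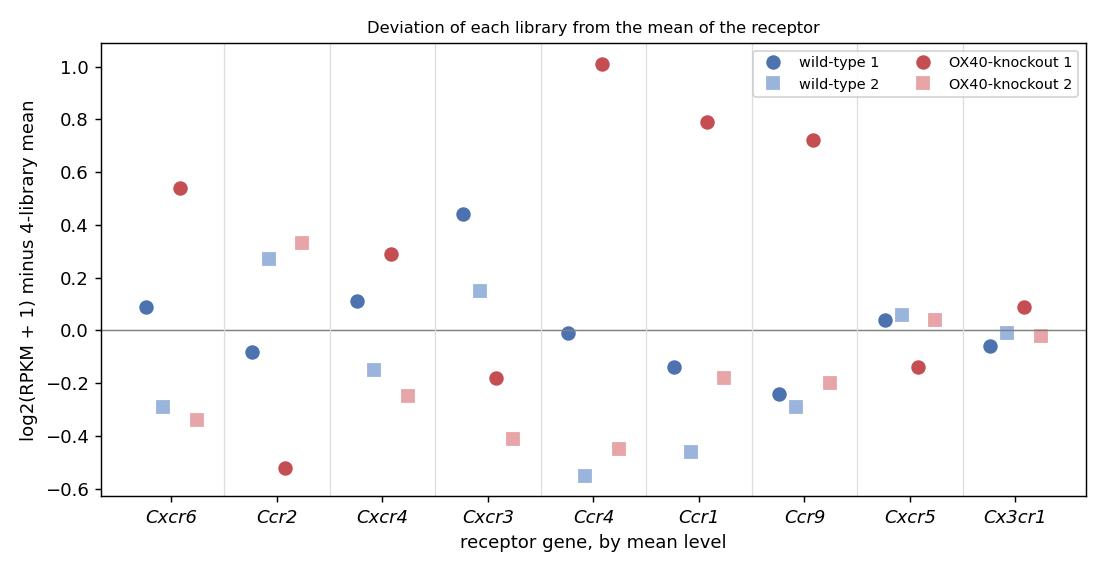
Each library's log2(RPKM + 1) minus the mean of the 4 libraries, for the 9 receptors in order of mean level. OX40-knockout 1 sits at 1.01 for Ccr4, 0.79 for Ccr1, 0.72 for Ccr9 and 0.54 for Cxcr6 and at -0.52 for Ccr2, while Cxcr3 is at -0.18 and -0.41 in the knockout and at 0.44 and 0.15 in the wild-type points.

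The library that departed most often from the rest was OX40-knockout 1. It was the highest for 4 of the 6 tested receptors, against 36.9% of all tested genes, and the lowest for 1, against 42.6%. It was at least 2-fold above the highest other library for 2 of the 6, Ccr4 and Ccr1, where 2.0% of all tested genes were, and also for Ccr9 among the 3 not tested. The GC content of transcripts moved with this library over all genes. Its median deviation from the 4-library mean went from -0.18 in the fifth of tested genes lowest in GC content, which ended at 45.1%, to 0.21 in the fifth highest. Ccr1 (39.1% GC), Ccr2 (39.4%) and Cxcr6 (43.1%) belong to that lowest class. With each library centred within 20 narrower GC classes, the log2 change was 0.76 for Ccr1, 0.31 for Cxcr6 and -0.04 for Ccr2. The part of GC content in the levels of these receptors was not tested.

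**Figure D3:**
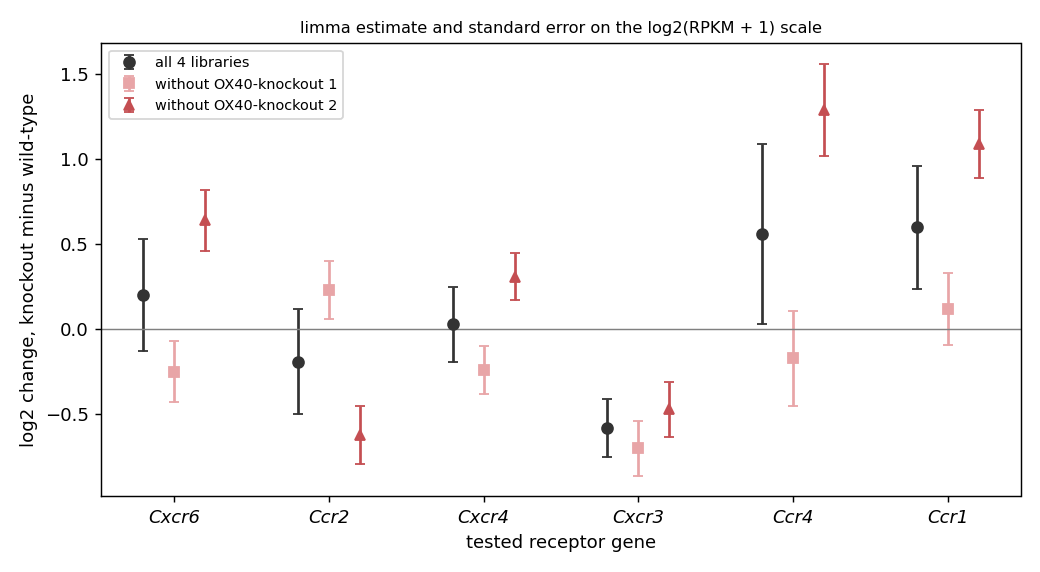
limma log2 change from wild-type to knockout with its standard error, for the 6 tested receptors, with all 4 libraries and without either knockout library. Without OX40-knockout 1 the values for Cxcr6, Ccr2, Cxcr4 and Ccr4 cross 0, and the 3 values for Cxcr3 lie between -0.70 and -0.47.

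Of the 9 genes, 7 lie on mouse chromosome 9, and along it Ccr9, Cxcr6, Ccr1 and Ccr2 follow each other among the members in the RefSeq annotation. These 4 did not move as a block across libraries. Ccr9, Cxcr6 and Ccr1 were highest in OX40-knockout 1, and Ccr2 was lowest there.

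Genes that could supply the ligands of the 9 receptors were mostly low. Of 18 ligand genes, 9 entered the test and none passed in either direction (limma), with 4 above 0 and 5 below 0 in log2 change and a median of -0.20, beside -0.03 over all tested genes. Cxcl12 and Cxcl13 were listed at 0 in all 4 libraries, and Cxcl9 and Cxcl16 were under 1 RPKM in each. The 3 highest were ligand genes of CCR1 or of related receptors. Ccl5 was at 47.0 and 52.6 RPKM in wild-type 1 and 2, against 26.2 and 54.9 RPKM in OX40-knockout 1 and 2, lowest in OX40-knockout 1. Ccl6 was at 3.94 and 72.9 against 2.69 and 46.3 RPKM, low in both libraries numbered 1. Ccl4 was at 4.63 and 13.7 against 10.6 and 17.5 RPKM.

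The ligand genes of CCR4 were set beside their receptor because Ccr4 had the widest range; this choice was made after the values were seen. Ccl22 was at 2.17 and 8.52 RPKM in wild-type 1 and 2, against 20.5 and 6.34 RPKM in OX40-knockout 1 and 2, so it was highest in OX40-knockout 1 as Ccr4 was, but lowest in wild-type 1, where Ccr4 was second highest. Ccl17 was at 0.504 and 1.6 against 1.4 and 1.3 RPKM. Cxcl10, the only ligand gene of CXCR3 to enter the test, was at 3.05 and 1.91 against 2.42 and 1.63 RPKM, with overlapping groups. The groups did not overlap for 1 of the 9 tested ligand genes, against 26.4% of all tested genes. It was Ccl25, the ligand gene of CCR9, at 3.3 and 3.99 against 2.51 and 2.76 RPKM (log2 change -0.35, standard error 0.17, limma adjusted p = 0.975). Of the further CCR1 ligand genes, Ccl3 was at 3.26 and 14.0 against 5.23 and 16.6 RPKM and Ccl9 at 0.709 and 12.8 against 0.423 and 8.82 RPKM. Both were lower in the libraries numbered 1. Ccr1 was higher there, though between wild-type 1 and OX40-knockout 2 by less than the counting error.

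**Figure D4:**
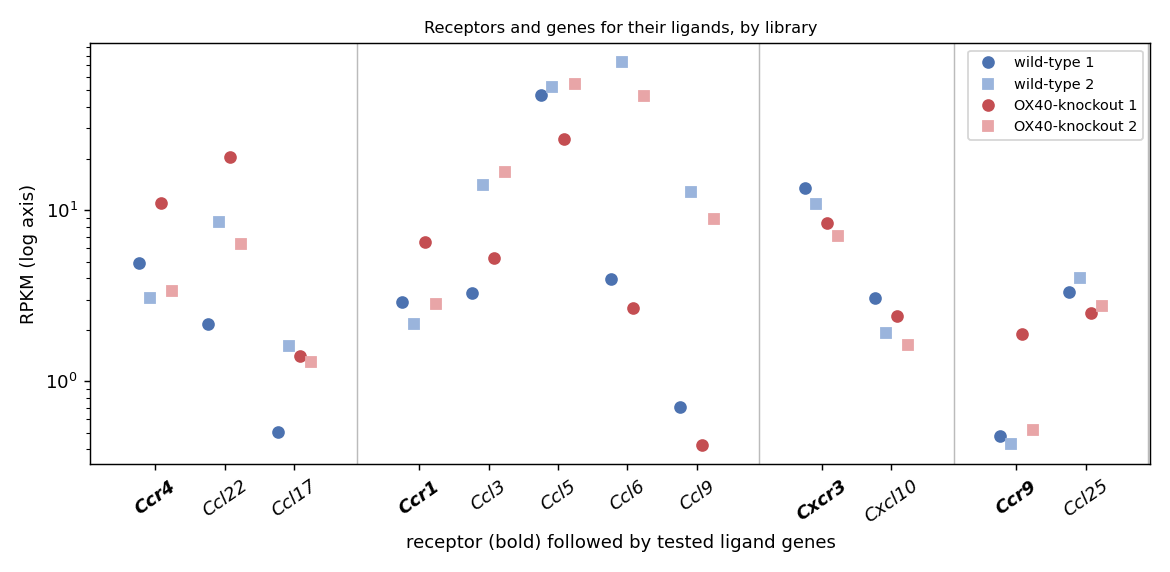
RPKM on a log axis of 4 receptors (bold) and of the tested genes for their ligands, 1 point per library. Ccr4 and Ccl22 are both highest in OX40-knockout 1, at 11.0 and 20.5 RPKM, while Ccl6 and Ccl9 are far lower in both libraries numbered 1 than in both numbered 2.

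A list of 14 other chemokine, atypical and related receptors was mostly low, with 10 of them under a mean of 1 RPKM. The other 4 entered the test and none passed (limma), with 3 above 0 and 1 below 0 in log2 change and a median of 0.04. These 4 were all highest in OX40-knockout 1, against 36.9% of all tested genes, and next highest in wild-type 1. The same 2 libraries led for Ccr4, Ccr1, Cxcr6 and Cxcr4. The order is not firm for Ccrl2, with 109 and 103 reads in wild-type 1 and 2, against 116 and 102 in OX40-knockout 1 and 2. Nor is it firm for Ccr7, with 323 and 334 against 319 and 211 reads. The 3 of highest mean were Ccr8, Gpr183 and Ccr7. Ccr8, often found together with CCR4 on type 2 and regulatory T cells, was at 3.95 and 2.27 RPKM in wild-type 1 and 2, against 13.2 and 2.11 RPKM in OX40-knockout 1 and 2. Gpr183, an oxysterol receptor that positions lymphocytes, was at 7.98 and 6.2 against 9.96 and 4.92 RPKM. Ccr7, the lymph node homing receptor, was at 7.03 and 6.92 against 7.26 and 4.73 RPKM.

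Genes of the machinery that carries the signal of these receptors ranged widely in level. The lowest listed was Plcb3, at 5.98 and 6.04 RPKM in wild-type 1 and 2, against 8.55 and 5.82 RPKM in OX40-knockout 1 and 2. All 24 genes entered the test, none passed in either direction (limma), and 13 were above and 11 below 0 with a median of 0.02. The 3 of highest mean were Cdc42, a small GTPase of cell polarity, at 423 and 396 RPKM in wild-type 1 and 2, against 337 and 427 RPKM in OX40-knockout 1 and 2, Gnai2, the main inhibitory G protein subunit of lymphocytes, at 330 and 324 against 400 and 311 RPKM, and Grk2, a kinase that desensitizes the receptors, at 297 and 310 against 339 and 279 RPKM. In 6 of the 24 the groups did not overlap, 2 with the knockout above and 4 with it below, near the 26.4% of all tested genes. The 4 below were Gnai3, Pik3cg, Dock2 and Elmo1, with log2 changes of -0.16, -0.11, -0.08 and -0.04. The 2 above were Rgs1 and Rgs2, which encode GTPase-activating proteins that shorten G protein signals. Rgs1 and Rgs2 were picked out after their values were seen. Rgs1 was at 128 and 115 RPKM in wild-type 1 and 2, against 151 and 157 RPKM in OX40-knockout 1 and 2 (log2 change 0.34, standard error 0.11). Rgs2 was at 13.8 and 10.5 against 19.1 and 17.5 RPKM (0.57, standard error 0.17). Neither passed (limma adjusted p = 0.975 for both).

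Transcription factors known to act on homing receptors were given as a further list of 12, of which 11 entered the test and none passed (limma), with 9 above and 2 below 0 and a median of 0.17. The 3 of highest mean were Id2 (440 and 509 RPKM in wild-type 1 and 2, against 378 and 523 RPKM in OX40-knockout 1 and 2), Runx3 (305 and 324 against 385 and 327 RPKM) and Eomes (114 and 150 against 75.5 and 133 RPKM). Tbx21, which encodes T-bet, the factor best known for inducing Cxcr3, was at 14.6 and 18.7 RPKM in wild-type 1 and 2, against 15.9 and 19.4 RPKM in OX40-knockout 1 and 2, with overlapping groups. Gata3, the factor of type 2 cells, was at 66.6 and 54.5 against 135 and 53.8 RPKM. OX40-knockout 1 was highest for 6 of the 11 tested factors, Gata3 among them, against 36.9% of all tested genes. Tbx21 and Gata3 were named after their values were seen.

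The genes whose pattern over the 4 libraries was most like that of the most abundant and of the most variable receptor were sought among the 8902 tested genes that averaged at least 5 RPKM, by the Euclidean distance between centred log2(RPKM + 1) profiles. With 4 libraries, such likeness is a description only. Closest to Cxcr6 were Ndrg1 (distance 0.029), Apbb1 (0.051) and Parp12 (0.070). Ndrg1 was at 133 and 103 RPKM in wild-type 1 and 2, against 182 and 96.2 RPKM in OX40-knockout 1 and 2. Closest to Ccr4 were Sgms1 (0.050), St3gal2 (0.079) and Ube2l6 (0.123), of which Sgms1 was at 8.8 and 5.77 against 19.7 and 6.15 RPKM.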

How the data were processed

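RNA sequencing of 4 DNT libraries, 2 per genotype, was used. Libraries were made from total RNA with a TruSeq kit, per the labels' protocols, and Bowtie 0.12.2 and the build mm8 are named in the submitters' processing notes. The sources used here give neither the annotation and the counting tool nor the use of strand and the handling of multi-mapping reads. The authors deposited 1 table of RPKM values, whose header states no unit; the unit was read off the values.

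Library totals were recovered from single-transcript genes at 1 read and the GENCODE vM21 length, and whole reads, within a tolerance of 0.005 read, for 20995 of 20996 genes above 0. The recovered reads summed to 102.2% of the totals, so some may be a multiple of the true number. Symbols from GENCODE vM21 named 34490 of 35275 IDs. As that annotation is of GRCm38, coordinates are given only for RefSeq windows of that build.

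Tests used limma 3.58.1 (R 4.3.3, empirical Bayes with a mean-variance trend) on log2(RPKM + 1), with all 4 libraries and no block, over 11625 genes averaging at least 1 RPKM, with Benjamini-Hochberg adjustment over all of them and a threshold of 0.05. The log2 scale with a pseudocount understates changes of low genes. The fitting was tested on simulated data with a fixed spread between libraries, where it found the changed genes but also called more unchanged genes than the threshold allows. No simulated library stood apart as OX40-knockout 1 did, so the simulation does not show which changes could be found in these data. Intervals are exact 95% Poisson intervals and cover counting error only. The members and lists were chosen with earlier results of these data known. All 9 receptors are named, and of each list the 3 genes of highest mean. Marker lists with summed levels, wild-type 1 and 2 then OX40-knockout 1 and 2, were αβ T cell (2410, 2110, 2240 and 2160 RPKM), coreceptor (14.6, 14.9, 31.1 and 13.1 RPKM), γδ T cell (408, 403, 422 and 418 RPKM), B and plasma cell (3.08, 2.62, 4.85 and 2.87 RPKM, with Ms4a1 at 0), and erythroid and platelet (4.96, 14.8, 8.44 and 11.3 RPKM), beside the NK and the dendritic and myeloid lists of the results. Python 3.11.15, numpy 2.4.6, pandas 2.3.3, scipy 1.17.1 and matplotlib 3.10.9 were used.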

Additional observations from a re-analysis of the deposited data

How the results depend on the processing

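No receptor passed the threshold under any of the 14 alternatives, and the lowest limma adjusted p was 0.0703, for Ccr1 without OX40-knockout 2. Of 84 values for the 6 tested receptors, 79 kept their direction and 5 reversed. Without OX40-knockout 1 the log2 change was -0.25 for Cxcr6, 0.23 for Ccr2, -0.17 for Ccr4 and -0.24 for Cxcr4, and without wild-type 2 it was -0.09 for Cxcr4. Without OX40-knockout 2 the same 4 were at 0.64, -0.62, 1.29 and 0.31. Cxcr3 stayed between -0.73 and -0.44. Ccr1 stayed above 0, between 0.12 and 1.09. Over all genes, limma called 0 in the fit with all libraries, with 162 at an unadjusted p under 0.05. Of these, 64 had a log2 change above 0 and 98 below it, and with TMM factors the numbers were 85 and 80. It called 1 with quantile normalization and, leaving out a library, between 0 and 1. Without OX40-knockout 2, 3832 genes had an unadjusted p under 0.05, and without OX40-knockout 1, 524 had. limma-voom on the recovered reads called 0, with 129 at an unadjusted p under 0.05. Deviations of wild-type 1 and OX40-knockout 1 from their group means correlated over genes (r = 0.469), but no label says that numbers pair libraries. With the replicate block limma called 5 genes, and 1 with the block and the GC correction, in both cases no receptor. With 10 to 36 reads in all but 1 of their values, Ccr9, Cxcr5 and Cx3cr1 are limited by depth. Leaving out a library leaves 1 in its group, which is assumed to vary like the other group.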
